A study of Mus musculus with 12 samples.

Results

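The glutathione and antioxidant enzymes in cultures of bone marrow mesenchymal stem/stromal cells (MSCs) were followed through 37 genes named by function. Of these, 34 had at least 1 probe set carrying the gene as its only symbol in the platform annotation, and 65 probe sets represented them among 45037 on the array and 18193 genes in all. Prdx1 was left out because its 5 probe sets carry a further symbol, and Prdx5 and Prdx6 were not analysed here. The RNA came from 12 cultures of MSCs sorted as Sca-1+ and Pdgfr-α+ cells from the marrow of C57BL6/J mice labelled as male and 6 weeks old. In 6 cultures (the co-culture group) 3000 MSCs per well had been kept with 7000 Lin-, Sca-1+ and c-Kit+ hematopoietic stem/progenitor cells (HSCs), and in the other 6 (the control group) MSCs were kept alone. No genotype differed between the groups, and all RNA was taken on day 6. The labels do not say whether the co-cultures of the arrays were direct or through an insert, nor whether the cultures of a group came from different animals, so p-values measure the spread between these samples, which may be technical.

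Glutathione is a small thiol that cells build from cysteine, glutamate and glycine, use to reduce peroxides and attach to reactive compounds, and recycle with NADPH. Thioredoxin and the peroxiredoxins form a parallel thiol system, while superoxide dismutases and catalase act on superoxide and hydrogen peroxide directly. Many of these genes are known targets of NRF2 (Nfe2l2), a transcription factor that Keap1 holds at a low level until oxidants or electrophiles release it. NRF2 binds, with small Maf proteins, a DNA element called the antioxidant response element.

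Signals below are linear array units. Differences are on the log2(signal + 16) scale, so they understate the change of dim probe sets, and a gene is given by the brightest of its probe sets on average. Different probe sets bind with different strength, so no gene's signal is set against that of another. The arrays had alike overall signal, with medians from 77.2 to 89.0 in co-cultures and 74.8 to 85.5 in controls. All 12 arrays carried strong macrophage genes beside the stromal ones. In such bulk RNA the cells that gave the antioxidant signals cannot be told apart. The 15 macrophage markers measured summed to 272168 to 365006 in co-cultures and 256098 to 355926 in controls, and Ptprc, which encodes the CD45 antigen gated out in the sort, read 10424.9 to 13143.5. The 15 stromal markers measured summed to 21867 to 48430.3 and 24734 to 49314, with Pdgfra at 406.9 to 1464 over the 12 arrays. Sex-linked transcripts went against the male label on 8 arrays, since Xist read 13136 to 21978 in all 6 co-cultures and in controls 3 and 4, against 60.5 to 118 in the other 4 controls. The Y-linked Eif2s3y was at 0.5 to 13.6 on the 4 arrays numbered 3 and 4 and at 2604 to 2845 in controls 1, 2, 5 and 6. Co-cultures 1, 2, 5 and 6 carried both transcripts, with Eif2s3y at 1022 to 1331, and 0 controls did. The group comparison was repeated without the arrays numbered 3 and 4, while leaving out every array with Xist would leave no co-culture. In that subset every co-culture carried Xist and every control lacked it, so sex-linked signal and group cannot be told apart there. Xist and Eif2s3y were among the 8 probe sets called in it. Over all 12 arrays Xist was high in every co-culture but only in controls 3 and 4. Sex-linked signal is thus partly confounded with group in the main comparison too.

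No antioxidant gene passed the adjusted threshold between co-cultures and controls. Of the 65 member probe sets, 0 had an adjusted p under 0.05 in limma with Benjamini-Hochberg adjustment, beside 0.00444% of all probe sets. At an unadjusted p under 0.05, 0 member probe sets were higher and 1 was lower, beside 2.81% and 1.55% of all probe sets. In 0 member probe sets did all co-cultures lie on one side of all controls, beside 0.198% of all probe sets. Mean differences of the 34 genes were positive for 17 and negative for 17, with a median of 3.0e-04 against 0.0108 over all genes, and 20 of them were within 0.1 of 0. Without the arrays numbered 3 and 4, where Xist and group coincide, 0 member probe sets passed the adjusted threshold. In that subset 3 (Gstp1, Gstt1 and Gpx7) were lower at an unadjusted p under 0.05, beside 2.83% of all probe sets. Over the 26 alternative settings that give one, the smallest adjusted p of any member probe set ran from 0.693 to 1.

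**Figure D1:**
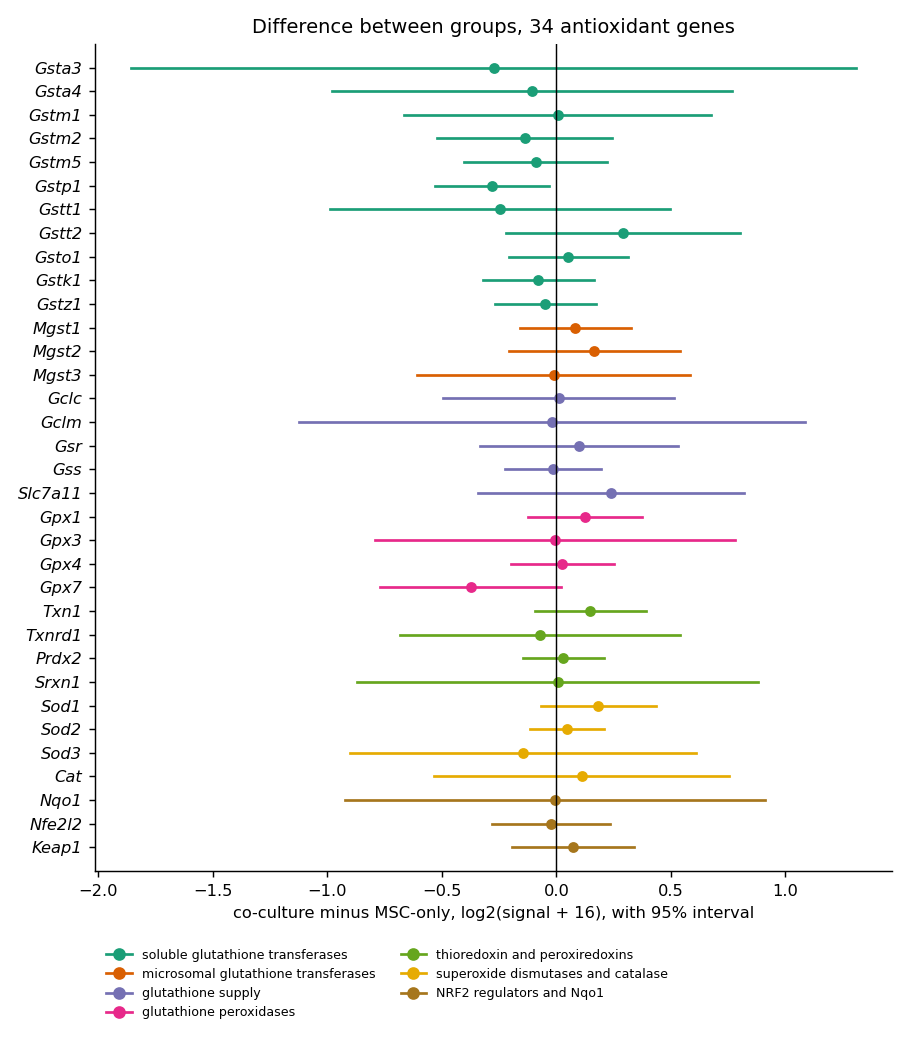
Difference between co-culture and control (6 arrays each) of the brightest probe set of 34 genes, in log2(signal + 16), with 95% intervals from limma as lines and colours for the genes' roles. Means ran from -0.37 for Gpx7 to 0.29 for Gstt2, and the intervals of Gsta3, Gclm, Nqo1 and Srxn1 were among the wide ones.

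The soluble glutathione transferases join glutathione to electrophiles, and 3 of their 11 measured genes had positive and 8 negative mean differences. Gstp1, the pi-class transferase, was the 1 member under the unadjusted threshold. Its signals were 1867.5, 2021 and 2386 (lowest, median and highest) in co-cultures and 2118.5, 2361 and 3006 in controls. Thus 4 of 6 co-cultures lay below every control, and the groups overlapped. The difference was -0.28 (SE 0.115, 95% interval -0.53 to -0.03, n = 6 per group, limma adjusted p = 1). It was -0.32 without the arrays numbered 3 and 4. The unadjusted p rose above 0.05 when control 1, control 3, co-culture 2, co-culture 5 or co-culture 6 was left out. Gsta3, an alpha-class transferase, read 6.6, 132.7 and 331.8 in co-cultures and 31.0, 155.8 and 286.4 in controls, and the groups overlapped along nearly all of that span. Its difference of -0.27 had an interval from -1.86 to 1.31, the widest of the members. Gstt2 gave the largest positive mean of the members, 0.29 (interval -0.22 to 0.80), and Gstt1 gave -0.25 (interval -0.99 to 0.50). Without the arrays numbered 3 and 4, Gstt1 moved to -0.77 (SE 0.33, limma adjusted p = 0.725). Gstm1, Gstm2, Gstm5, Gsto1, Gstk1 and Gstz1 had means from -0.14 to 0.05, and Gsta4 was dim at 3.8 to 70.1 on all arrays.

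The membrane-bound transferases gave means from -0.01 to 0.17. Mgst1, which also reduces lipid peroxides, was 19540.0 ± 1890.0 in co-cultures and 18541 ± 2582 in controls (SD, n = 6), a difference of 0.08 (interval -0.16 to 0.32). Mgst2 differed by 0.17 (interval -0.21 to 0.54) and Mgst3 by -0.01 (interval -0.61 to 0.59).

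The genes that supply reduced glutathione gave means from -0.02 to 0.24. Gclc and Gclm encode the catalytic and modifier subunits of glutamate-cysteine ligase, the rate-limiting enzyme of glutathione synthesis. Gclm read 1565, 2836 and 6994 in co-cultures and 1362, 3442 and 5853 in controls, a difference of -0.02 (interval -1.12 to 1.09). Gclc differed by 0.01 (interval -0.49 to 0.51). Gss, glutathione synthetase, differed by -0.01 (interval -0.23 to 0.20). Gsr, the reductase that regenerates glutathione, differed by 0.10 (interval -0.34 to 0.53), and Slc7a11, the cystine importer, by 0.24 (interval -0.34 to 0.82).

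Among the glutathione peroxidases, Gpx7, an enzyme of the endoplasmic reticulum, gave the largest mean difference of all members. Its signals were 124.8, 156.2 and 232.9 in co-cultures and 158.9, 202.8 and 306.2 in controls, with 3 of 6 co-cultures below every control. The difference was -0.37 (SE 0.183, interval -0.77 to 0.02, limma adjusted p = 1, and unadjusted above 0.05), and -0.53 without the arrays numbered 3 and 4 (SE 0.20, limma adjusted p = 0.693). It was -0.40 (SE 0.245) and -0.35 (SE 0.170) on the arrays on either side of the division described below. Gpx1, the main cytosolic enzyme, differed by 0.13 (interval -0.12 to 0.38), Gpx3, the secreted one, by -4.8e-03 (interval -0.79 to 0.78), and Gpx4, which protects membrane lipids, by 0.03 (interval -0.20 to 0.25).

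In the thioredoxin system, Txn1 differed by 0.15 (interval -0.09 to 0.39), its reductase Txnrd1 by -0.07 (interval -0.68 to 0.54), and Prdx2, a peroxiredoxin of the cytosol, by 0.03 (interval -0.15 to 0.21). Srxn1, which repairs over-oxidised peroxiredoxins, differed by 5.4e-03 (interval -0.87 to 0.88). Among the enzymes acting on superoxide and hydrogen peroxide, Sod1 gave 0.18 (interval -0.07 to 0.43), the mitochondrial Sod2 0.05 (interval -0.11 to 0.21) and Cat 0.11 (interval -0.53 to 0.76). Sod3 was dim at 4.5 to 61.7. Nfe2l2 itself was 10732 ± 1446 in co-cultures and 10903 ± 1314 in controls (SD, n = 6), a difference of -0.03 (interval -0.28 to 0.23). Keap1 differed by 0.07 (interval -0.19 to 0.34), and Nqo1, a quinone reductase often read as a marker of NRF2 activity, by -5.8e-03 (interval -0.92 to 0.91).

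**Figure D2:**
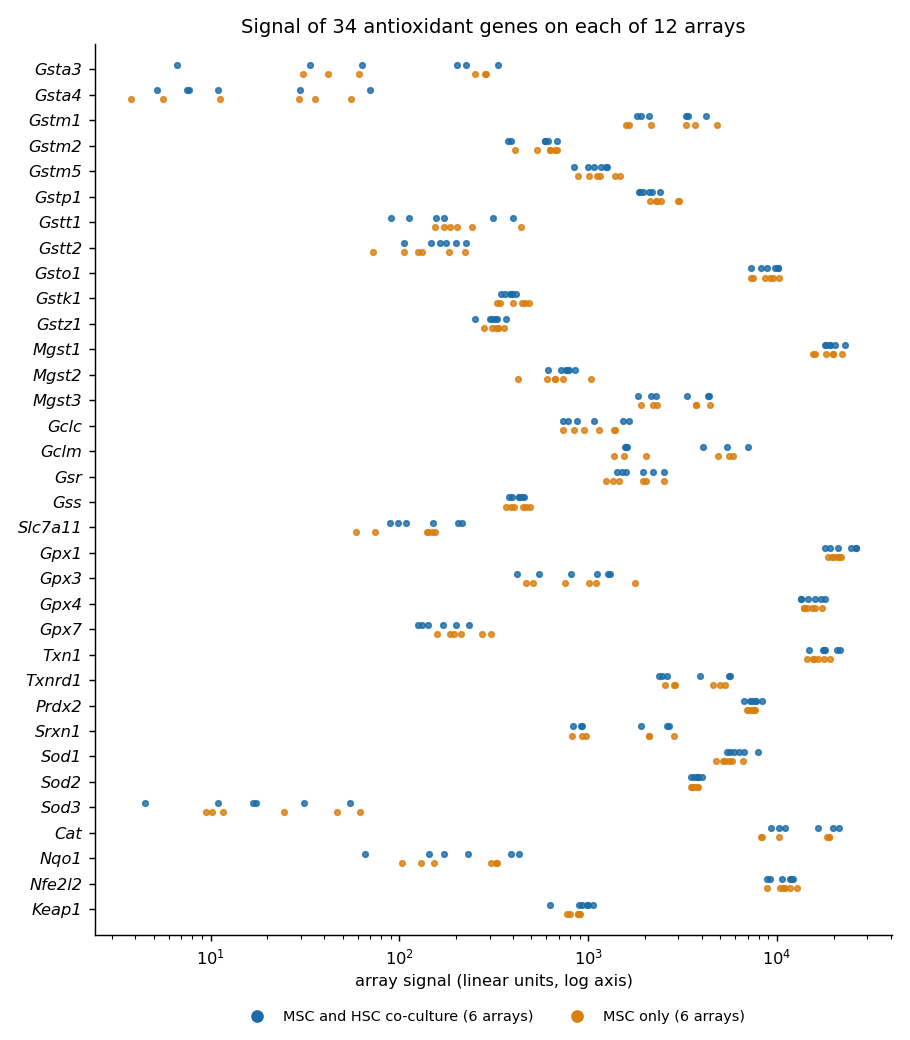
Signal of the brightest probe set of each of 34 genes (log axis) on the 6 co-culture and 6 control arrays, 1 point per array. Within a gene the points of both groups overlap, and genes such as Gclm, Srxn1 and Cat fall into separate clumps that hold arrays of both groups. Positions of different genes are not comparable.

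Genes of the same pathways that are not among the 37 gave 0 adjusted calls too. These were 15 genes listed as other transferases, 22 other peroxidases and redoxins, 12 genes of glutathione turnover and 23 other NRF2 pathway genes. Hmox1, heme oxygenase, differed by 0.49 (SE 0.356, limma adjusted p = 1). Gsta2 was the 1 of the genes listed as other transferases with an unadjusted p under 0.05, at a difference of 0.65 (SE 0.234, limma adjusted p = 1), on signals of 15.5 ± 12.9 and 2.78 ± 2.45 (SD, n = 6) that lie at the floor of the array. Sqstm1, an autophagy receptor, was the 1 of the other NRF2 pathway genes with an unadjusted p under 0.05, with a difference of -0.18 (limma adjusted p = 1).

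A far larger spread of the antioxidant genes ran across both groups. The arrays were divided by a single probe set without a gene name in the annotation used here, called the dividing probe set, whose ID stands on the axis of the plot of signals per array. Its signal was 23626 to 43044 on 6 arrays (co-cultures 2, 3 and 5 and controls 1, 3 and 5) and 16.7 to 57.2 on the other 6 (co-cultures 1, 4 and 6 and controls 2, 4 and 6), with none between 57.2 and 23626. The limits were set at over 1000 (the high arrays) and below 100 (the low arrays), and each side holds 3 arrays of each group. Since the division is made from a measured value and has been seen to part Gsta3, the sides are described without tests. The division enters tests of co-culture against control only as a covariate or to restrict the arrays. No label names the property that parts the arrays, and in bulk RNA fewer cells of a type and less RNA per cell cannot be told apart.

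Gsta3 parted furthest of the members. Its brighter probe set read 31.0 in control 1, 6.6 in co-culture 2, 33.8 in co-culture 3, 61.1 in control 3, 63.2 in co-culture 5 and 41.8 in control 5, the high arrays. On the low arrays it read 331.8 in co-culture 1, 285.1 in control 2, 202.2 in co-culture 4, 250.5 in control 4, 225.0 in co-culture 6 and 286.4 in control 6. The lowest of the second set was 3.20-fold the highest of the first, a gap that ranked 31 of all 45037 probe sets. The division was known in advance to part Gsta3, so this gap and rank only describe it. The other Gsta3 probe set read 25.4 to 40.4 and 68.6 to 94.4, so it parted the same arrays on a lower signal.

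Gsta3 was not alone. The counts below include Gsta3 and both its probe sets, which the division was already known to part. The members were also chosen with earlier results of these data known. Of the 65 member probe sets, 19 were lower on every high array than on every low array, beside 3% of all probe sets, and 3 were higher, beside 3.59%. By gene, 10 of 34 were lower and 2 higher, or 29.4% and 5.88%, beside 4.14% and 4.63% of all genes. Among probe sets above the median signal, 18 of 54 member probe sets were lower (33.3%) beside 5.79% of all, and 3 were higher (5.56%) beside 6.38%. The counts for members were 22 lower and 3 higher after quantile normalization, beside 3.24% and 3.2% of all probe sets, and 22 lower and 2 higher after median centring, beside 4.85% and 1.95%. Without the arrays numbered 3 and 4 they were 20 lower and 7 higher, beside 5.59% and 7.04%. Leaving out 1 array at a time gave 19 to 21 lower and 3 to 5 higher, with 5 higher without co-culture 1. The shares of all probe sets were then 3.19% to 3.61% lower and 3.94% to 4.45% higher.

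**Figure D3:**
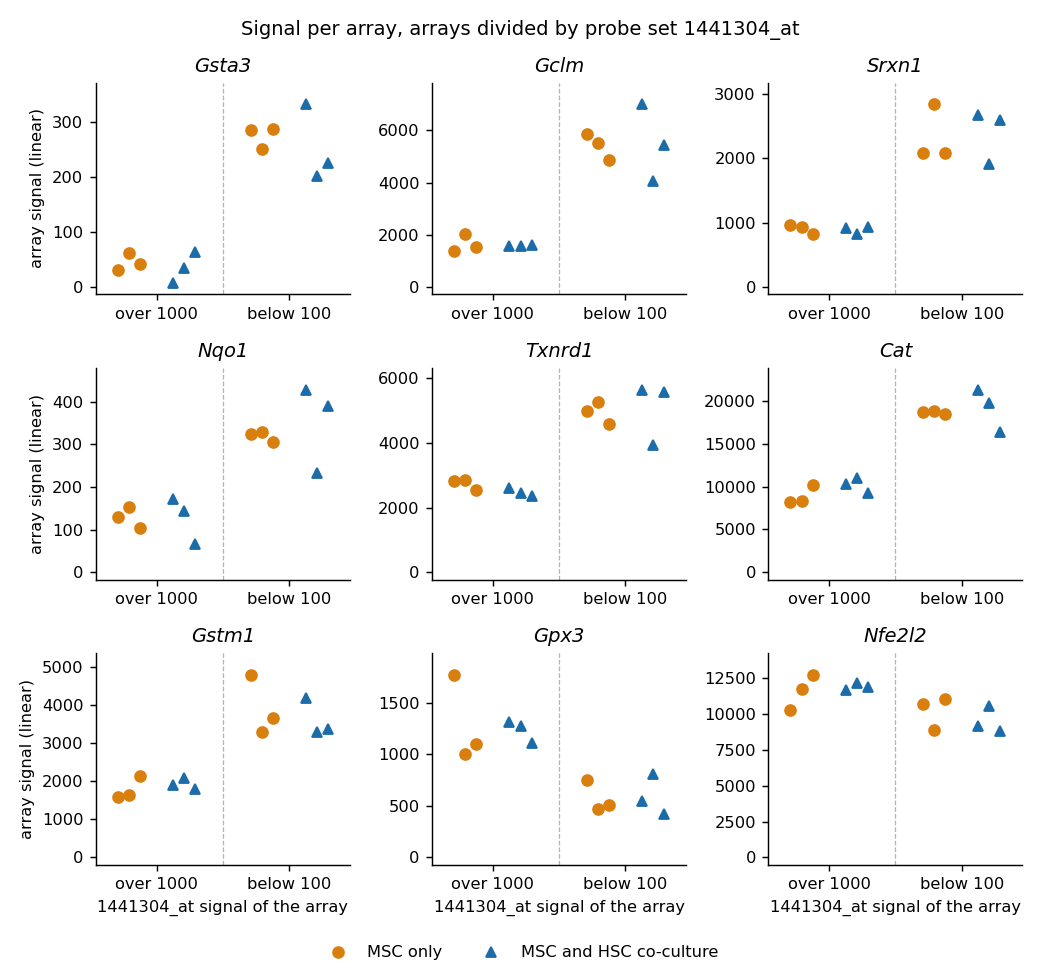
Signal per array (linear) of 9 genes, with arrays grouped by the signal of the dividing probe set (over 1000, the high arrays, or below 100, the low arrays) and symbols for control and co-culture, 3 arrays of each per side. Gsta3, Gclm, Srxn1, Nqo1, Txnrd1, Cat and Gstm1 lay lower on all high arrays, Gpx3 lay higher, and Nfe2l2 overlapped.

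Of the 5 genes that supply glutathione, 3 parted the arrays the same way as Gsta3 and 2 overlapped. Gclm read 1362, 1578 and 2019 (lowest, median and highest) on the high arrays and 4070 to 6994 with a median of 5489 on the low arrays, so that the gap between the sets was 2.02-fold. Gclc, its catalytic partner, read 733.9 to 953.9 and 1078 to 1635, a gap of 1.13-fold. Gsr read 1236.5 to 1589 and 1949.8 to 2528, while its other probe set overlapped. Gss and Slc7a11 overlapped, with Gss at 405.9 to 468.1 and 366.0 to 494.4.

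Of the transferases, Gstm1 parted with all 4 of its probe sets. The narrowest gap was only 1.02-fold, at 118.1 to 220.6 on the high arrays against 224.8 to 297.4. The brightest read 1588.5, 1847 and 2145 on the high arrays and 3295, 3521 and 4789 on the others, a gap of 1.54-fold. Mu-class genes are close in sequence, and this probe set is of a kind that can bind related transcripts. Gstm2 (374.6 to 665.1 and 533.7 to 684.8) and Gstm5 (1068 to 1468 and 836.6 to 1235), which are mu-class genes too, overlapped. Mgst3 read 1837.5 to 2310 and 3317 to 4417, while Mgst1 and Mgst2 overlapped. Gsto1, an omega-class transferase, was 1 of the 2 genes with higher signal on the high arrays, at 9187 to 10220.0 against 7282 to 8815, and the sets were only 1.04-fold apart.

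The thioredoxin system and the peroxide enzymes gave further members. Srxn1 read 821.0, 919.9 and 967.4 on the high arrays and 1907, 2346 and 2839 on the others, a gap of 1.97-fold, and 3 of its 4 probe sets parted the same way. Txnrd1 read 2372 to 2866 and 3926 to 5651, a gap of 1.37-fold, while its dimmer probe sets overlapped. Txn1, the reductase's substrate, overlapped at 14487 to 17929 and 16566 to 21562. Cat read 8234 to 11055 and 16402 to 21343, a gap of 1.48-fold, and its other probe set read 5414 to 7097 and 13430 to 17863. Sod1 and Sod2 overlapped, and so did Prdx2 at 6688 to 7710.0 and 7330 to 8312. Gpx3 went the other way, with 1004 to 1770 on the high arrays and 420.3 to 807.5 on the others, a gap of 1.24-fold, while Gpx1, Gpx4 and Gpx7 overlapped.

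Nqo1 read 65.7, 137.0 and 171.5 on the high arrays and 231.6, 327.3 and 427.6 on the others, a gap of 1.35-fold. The transcript of NRF2 itself did not part the arrays. Nfe2l2 read 10301 to 12725 and 8846 to 11035, which overlapped, and Keap1 read 625.9 to 1054.5 and 771.8 to 993.8. These are RNA levels, and the amount or location of the NRF2 protein was not measured.

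**Figure D4:**
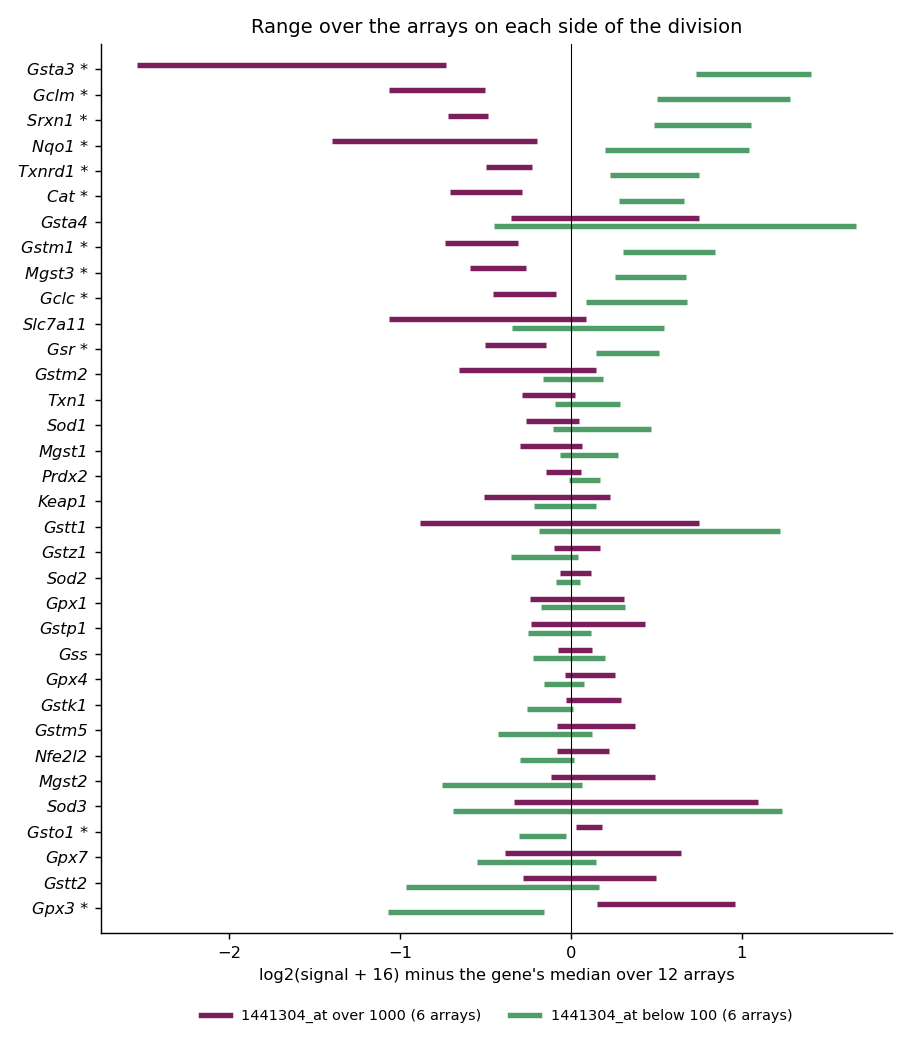
Range of log2(signal + 16) around each gene's median over 12 arrays, on the 6 high and the 6 low arrays of the dividing probe set, for 34 genes ordered by the difference of the 2 medians. An asterisk marks the 12 genes whose ranges do not overlap, 10 lower and 2 higher (Gsto1 and Gpx3) on the high arrays.

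With the division as a covariate, the difference of Gclm between co-culture and control stayed at -0.02 and its 95% interval narrowed to -0.32 to 0.28, and that of Srxn1 narrowed to -0.25 to 0.26. The interval of Gsta3 narrowed too, from -1.86 to 1.31 to -0.86 to 0.31. This narrowing was fixed in advance, since Gclm, Srxn1 and Gsta3 are genes whose signals part across the division. In that fit 0 member probe sets had an adjusted p under 0.05, and 1 was higher and 2 were lower at an unadjusted p under 0.05, beside 3.2% and 1.99% of all probe sets. Gstp1 then had an interval of -0.51 to -0.05 (adjusted p = 0.926) and Gpx7 of -0.70 to -0.05 (adjusted p = 0.932).

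The spread over the 12 arrays was set against the 1000 probe sets nearest in mean signal. The SD of log2(signal + 16) was 1.35 for Gsta3, above 99.8% of such probe sets, 0.93 for Gclm (99.4%), 0.74 for Srxn1 (98.9%), 0.66 for Gpx3 (98.7%), 0.77 for Nqo1 (98.6%) and 0.54 for Cat (98.3%). Of the 11 members above 95%, 9 were genes whose ranges did not overlap across the division, which is the same spread seen another way. Other members were steady by their brightest probe set. Sod2 had an SD of 0.06, above only 2.5% of probe sets of like signal, and Gss, Gstz1 and Prdx2 were above 10.4%, 10.5% and 13.8%. Further probe sets of these genes varied more. Those of Sod2 were above 27.9% to 97.6%, the last on a dim signal of 3 to 82.8, and those of Gss and Prdx2 above 53.4% and 58.9%.

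**Figure D5:**
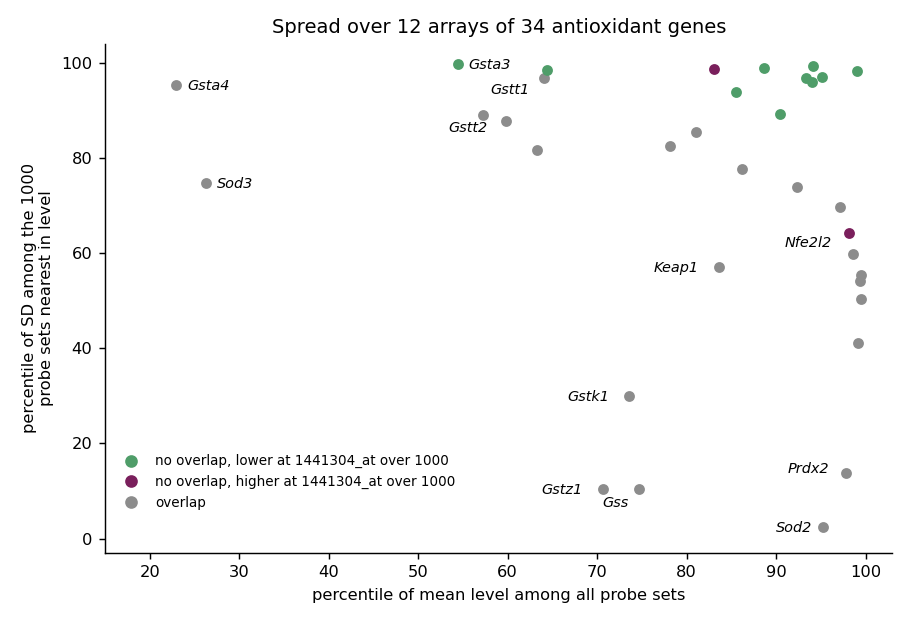
Percentile of the SD over 12 arrays among the 1000 probe sets nearest in signal (vertical), against the percentile of the mean signal among all probe sets (horizontal), 1 point per gene. Each gene is given by its brightest probe set. Green and purple points are the 10 and 2 genes whose ranges do not overlap across the division, and Sod2, Gss, Gstz1 and Prdx2 lie at the bottom.

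The promoters of the members were searched for TGACNNNGC, the core letters of the antioxidant response element, on both strands of the RefSeq window from 250 bases before to 50 after the start (GRCm38.p6). It was found in 4071 of 32851 windows (12.4%), and in 3781 of 27025 genes (14.0%). Of the 31 of the 37 named genes with a window, 9 held it (29.0%). It was present in 4 of the 8 genes that have a window and were lower on the high arrays (Gsta3, Gclm, Txnrd1 and Srxn1), in 0 of the 2 higher and in 4 of the 19 that overlapped. Upstream stretches of 3 genes that parted and of 2 that did not are shown, to set the element beside the values above. Each runs 5′ to 3′ on the gene's strand with 20 bases on either side, and capitals mark the matched letters, which in Gclm, Txnrd1 and Sod1 are read from the opposite strand, as GCNNNGTCA.
Gsta3, chr1:21240444-21240492: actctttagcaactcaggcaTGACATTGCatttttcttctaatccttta
Gclm, chr3:122245403-122245451: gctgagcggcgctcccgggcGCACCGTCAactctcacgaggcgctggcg
Txnrd1, chr10:82859094-82859142: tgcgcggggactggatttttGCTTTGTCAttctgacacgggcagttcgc
Gstm5, chr3:107895792-107895840: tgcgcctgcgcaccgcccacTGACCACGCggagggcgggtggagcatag
Sod1, chr16:90220686-90220734: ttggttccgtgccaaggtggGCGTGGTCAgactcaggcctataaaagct
The match lies 121 bases before the start in Gsta3, 134 in Gclm, 92 in Txnrd1, 42 in Gstm5 and 56 in Sod1. In Srxn1 it lies 28 bases after the start. The start is that of the window searched, and in Txnrd1 the window begins at 82858956 while the gene's locus begins at 82833951. The 31 genes had 39 windows, so some had more than 1 chance of a match. The 4 genes with a match whose signals overlapped across the division were Gstm5, Sod1, Mgst1 and Nfe2l2. Whether the element has a part in the division was not tested. Nqo1, Cat, Gstm1 and Mgst3 parted with no match in this window, and Gclc and Gsr had no window in the table. A match shows only that the letters are there, and elements further away were not searched.

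Related genes outside the 37 are read beside the 4.14% of all genes that were lower and the 4.63% that were higher on the high arrays. Of 23 other NRF2 pathway genes, 6 were lower (26.1%) and 2 higher (8.70%). Of 15 genes listed as other transferases 1 was lower (6.67%) and 1 higher (6.67%). The lower one was Alox5ap, the 5-lipoxygenase-activating protein, which is not itself a glutathione transferase. Of 22 other peroxidases and redoxins 2 were lower (9.09%) and 1 higher (4.55%), and the shares of both lists are near those of all genes. Of 12 genes of glutathione turnover 2 were lower (16.7%) and 0 higher. Taldo1 and Pgd, enzymes of the pentose phosphate pathway of which Pgd makes NADPH, read 5117 to 7112 and 7147 to 8631 on the high arrays against 11721 to 15352 and 12439 to 13948, and were named after their values were seen, as was Blvrb, biliverdin reductase B, at 3270.1 to 3865 against 6282 to 9657. Txnip, which binds and inhibits thioredoxin, was higher at 13439 to 17900.1 against 6588 to 7713. Abcc1, an exporter of glutathione conjugates, was lower at 2224 to 2462 against 3259 to 3836. Fth1, Tkt, Idh1 and Sqstm1 are commonly listed with NRF2 too and overlapped, as did Hmox1 at 962.1 to 2482 against 1902 to 4890.

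Markers of other cell types are set out across the division, and their part in the antioxidant values was not tested. Counts of parted markers stand beside the 4.63% of all genes that were higher and the 4.14% that were lower on the high arrays. In lists this short, 1 parted gene is not read as a result. The 15 macrophage markers summed to 294417 to 365006 on the high arrays and 256098 to 319251 on the others. Of the 15, 1 was higher (Cd53) and 2 were lower (Adgre1, at 8833 to 12218 against 13941 to 16686, and Itgam, at 269.4 to 496.0 against 760.0 to 1746), so the markers did not move one way. The markers named here were picked after their values were seen. The 15 stromal markers summed to 31065 to 49314 and 21867 to 36152, with 0 parted. The 10 mast cell markers summed to 363.7 to 599.5 and 244.2 to 345.6 without overlap, but 1 of 10 parted, Gata2, at 218.6 to 310.9 against 89.9 to 183.2, while Cpa3, Mcpt4 and Fcer1a reached no more than 92.6, 29.4 and 30.0 on any array. Of 9 endothelial markers, 1 parted (Vwf, 501.1 to 811.3 against 977.6 to 1420.2), the list summed to 934.7 to 1265 and 1196 to 1765.0, and Pecam1 did not exceed 36.6. Array medians were 81.0 to 89.0 and 74.8 to 84.4. Xist and Eif2s3y did not follow the division, with high and low arrays on both sides.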

How the data were processed

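RNA of 12 cultures, 6 per group, was measured on Affymetrix Mouse Genome 430 2.0 arrays. The authors processed the scans with Affymetrix's operating software, and the deposited signal values are linear, on 1 trimmed-mean scale (496.6 to 497.3 on all arrays) and not quantile-normalized. The summary method is not given in the sources used here. No array was left out, and replicates were not pooled.

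Groups came from the labels. Signals were taken as log2(signal + 16). The comparison used R 4.3.3 and limma 3.58.1 without a filter or a block, with Benjamini-Hochberg adjustment over 45037 probe sets and a threshold of 0.05. Of these, 34945 had 1 symbol, 932 several and 9160 none. All 65 member probe sets matched RefSeq by gene ID, with 0 symbols changed, and 10 are of kinds that can bind related transcripts. The number of arrays limits the precision, and intervals are 95% intervals of the limma difference. The fit was tested on simulated data.

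Named genes were all members by their brightest probe set, every Gsta3 probe set, further probe sets that differed in sign or side, and from each further list the up to 3 genes with the smallest p and the up to 3 brightest, plus sex-linked genes. Of 21 members with several probe sets, 12 had both signs, and the dim ones are not described singly. The members and lists were chosen with earlier results of these data known. Alternatives covered scaling, the added constant, a filter, limma's trend option, the replicate block, the division, the methods' test and left-out arrays. Adipocyte, erythroid and neutrophil markers gave 0 adjusted calls.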

Additional observations from a re-analysis of the deposited data

Results flagged for a closer look

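Keap1, which holds NRF2 at a low level, read 625.9 in co-culture 3 and 897.8 to 1054.5 in the other 5 co-cultures. The gap from co-culture 3 to the next array was 0.691 of the group's range on the log2 scale, above Dixon's 95% critical value for 6 samples. It was 1 of 68 groups of 6 checked, where chance gives about 3.4.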

How the results depend on the processing

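Member probe sets called numbered 0 in the main comparison and under all 26 alternatives that give this count. All probe sets called numbered 2, then 1 after quantile normalization, median or 75th percentile centring, with a constant of 1, with the division as a covariate or by the methods' t-test, 0 with a constant of 64, above the median signal, with limma's trend option or on either side of the division alone, 8 without the arrays numbered 3 and 4, and 0 to 4 leaving out 1 array (0 without control 1 or co-culture 3, 4 without control 6). Member probe sets lower at an unadjusted p under 0.05 numbered 1, then 2 after median centring, with the trend option or with the covariate, 0 on either side alone, 3 without the arrays numbered 3 and 4, and 0 to 2 leaving out 1 array. Those higher numbered 0, and 1 with the covariate.

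Counts across the division, which include Gsta3, were recomputed under settings chosen after seeing the data. Member probe sets entirely higher on the high arrays numbered 3 (3.59% of all probe sets), then 2 after median centring (1.95%), 7 without the arrays numbered 3 and 4 (7.04%) and 3 to 5 leaving out 1 array (3.94% to 4.45%). Those entirely lower numbered 19 (3%), then 22 after quantile normalization (3.24%) or median centring (4.85%). They numbered 20 without the arrays numbered 3 and 4 (5.59%) and 19 to 21 leaving out 1 array (3.19% to 3.61%).

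Replicate numbers are shared by the groups, but same-numbered arrays did not deviate together for every number (correlations of -0.16, -0.13, 0.12, 0.15, 0.10 and 0.15 for numbers 1 to 6). Both arrays numbered 3 and both numbered 4 lacked Eif2s3y, and the other 8 did not. Only co-culture 4 correlated best with its own number. With the replicate number as a fixed block 0 probe sets and 0 members were called, and with a random block 2 and 0.

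A further alternative took each gene's mean over its probe sets. Of 916 member gene values under these 27 alternatives, 913 stayed within the spread or the same side, 3 moved (Sod2 as a mean over its probe sets, -0.11, and Sod3 on either side of the division, 0.64 and -0.93) and 101, in 20 genes, changed sign without being called. The largest of these in the main comparison was Gsta3. The cause was not tested. The unadjusted calls of all probe sets, 1264 higher and 700 lower, became 919 and 1010 after quantile normalization, 893 and 1065 after median centring and 1382 and 622 after 75th percentile centring. Dim members such as Sod3, Gsta4 and, on the high arrays, Gsta3 lie near the floor, where the added constant sets the size of a difference.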
